A study of Mus musculus with 6 samples.

Results

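The 8 genes described here, Dusp1, Dusp2, Dusp4, Dusp5, Dusp6, Dusp7, Dusp10 and Dusp16, encode MAP kinase dual-specificity phosphatases and were read out in regulatory T cells (Tregs) sorted from mouse tumors. They were picked by symbol out of a count table of 23420 genes, and all 8 were among the 10352 genes that passed a filter on low counts. The choice was made with the contrast between anti-PD-1 and untreated libraries already known. The members' values in that contrast are therefore given as a description, and where test outcomes of members are counted, nothing is read from them.

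MAP kinases of the ERK, JNK and p38 branches are switched on when a kinase adds phosphate to a threonine and a tyrosine in their activation loop, and phosphatases of this family take both phosphates off again. Dusp1, Dusp2, Dusp4 and Dusp5 encode nuclear enzymes whose transcripts are induced by the signals they later shut down. Dusp6 and Dusp7 encode cytoplasmic enzymes that prefer ERK, and Dusp10 and Dusp16 encode enzymes that prefer JNK and p38. In T cells, ERK and JNK are activated downstream of the T cell receptor, whose signal PD-1 dampens when it binds its ligands.

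The libraries came from BALB/c mice in which GFP marks cells that express Foxp3, injected with 10000 T11 cells, a transplanted claudin-low breast tumor of the triple-negative kind. One group was left untreated (libraries 1, 2 and 3), and the other was given J43, an antibody against PD-1, at 200 µg per dose by 2 intraperitoneal injections per week (libraries 4, 5 and 6). Both groups carried the reporter and the tumor, tumors were taken at 150 mm2, and GFP-positive cells were sorted. The labels give no age, name no control injection, and do not say which mouse each library was made from. The p-values below thus rest on a spread between libraries that may be technical.

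Total counts ran from 5470816 to 6686774 in untreated and from 4766533 to 5219249 in anti-PD-1 libraries, so depth did not overlap between the groups. Untreated library 1 stood apart: a chi-square statistic of its counts against each other library was 23.65 to 30.8 per degree of freedom, against 9.71 to 14.9 among the other 5. Foxp3 ranged from 438 to 461 CPM (counts scaled to a common library size) untreated and from 462 to 563 CPM with anti-PD-1, and Cd3e and Cd4 were at 365 CPM or more in every library. The neutrophil markers summed to no more than 0.207 CPM. The 8 Treg and T cell markers summed to 6968 to 7573 CPM untreated and 5862 to 6643 CPM after anti-PD-1, which did not overlap. Of these, Ikzf2 (2004 to 2365 and 1684 to 1922 CPM) and Ctla4 (1495 to 1843 and 1193 to 1320 CPM) were lower without overlap. Foxp3 and Cd4 (365 to 459.9 and 468 to 498 CPM) were higher without overlap, and the rest overlapped. The endothelial and T cell gene Pecam1 did not overlap either (64.7 to 73.9 and 83.8 to 123 CPM), while the endothelial genes Cdh5 and Kdr had no count in any library. The 4 NK cell markers summed to 7.7 to 9.13 CPM untreated and 2.68 to 7.67 CPM after anti-PD-1, also without overlap, with Klra8 at 0 in every library. Summed markers of CD8 T cells, B cells, macrophages, neutrophils, dendritic cells, fibroblasts and epithelial cells overlapped between the groups. The part of depth and of these markers in the values below was not tested.

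The first question was which of these phosphatases tumor Tregs transcribe most. Levels of different genes are compared here as CPM per kilobase of counted length, and CPM is scaled by TMM, edgeR's correction for composition. Dusp1, which acts on p38, JNK and ERK, was the highest of the 8 in untreated libraries at 429 ± 63.5 CPM per kb (SD, n = 3). Dusp4, an ERK and JNK phosphatase of the nucleus, followed at 215 ± 29.7, and the ERK-specific nuclear phosphatase Dusp5 at 126 ± 10.2 CPM per kb. Dusp10 stood at 51.1 ± 3.44 and Dusp2, first described in activated T cells, at 37.9 ± 1.92 CPM per kb. Dusp16 (7.24 ± 2.36), Dusp7 (2.96 ± 1.28) and Dusp6 (1.88 ± 1.43 CPM per kb) were far lower. Every untreated library of a gene lay above every untreated library of the next gene in this order, except for Dusp7 and Dusp6, whose libraries overlapped. The remaining typical members of the family had lower means, Dusp8 at 0.971 ± 0.571 CPM per kb, with libraries that overlapped those of Dusp6, and Dusp9 at 0.186 ± 0.124 CPM per kb. The inducible nuclear group made up 92.5% to 92.9% of the summed level of the 8 genes, the JNK and p38 group 6.58% to 6.80%, and the cytoplasmic ERK group 0.389% to 0.797%.

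**Figure D1:**
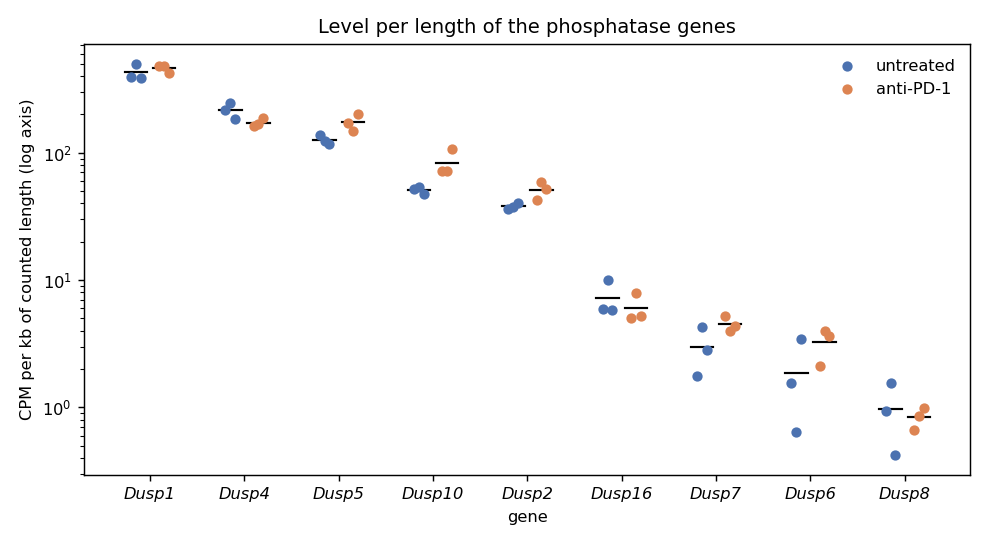
Level of each gene in CPM per kilobase of counted length (vertical log axis) in the 3 untreated (blue) and 3 anti-PD-1 (orange) libraries, with a line at each group mean, ordered by the untreated mean. Dusp1 is highest (429 CPM per kb untreated), and Dusp16, Dusp7 and Dusp6 lie below 10 CPM per kb in every library. The means of Dusp4 and Dusp5 trade places after anti-PD-1, where their libraries overlap. Dusp9, near 0, is not drawn.

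After anti-PD-1 the order of means was the same apart from Dusp5 (175 ± 26.7 CPM per kb) and Dusp4 (172 ± 13.7), whose libraries then overlapped. Dusp16 (5.02 to 7.88 CPM per kb) and Dusp7 (4.0 to 5.2), apart in untreated libraries, then overlapped too. The length counted for Dusp5 was 1155 bases, 46.7% of the 2473 exonic bases that GENCODE M21 gives the gene over all its transcripts. The annotation used for counting thus left much of that exonic sequence out. For the other 7 genes that share was 58.7% (Dusp1) to 95.7% (Dusp7). Levels per length depend on this annotation, while differences between treatments within a gene do not compare lengths.

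Promoters are shown for Dusp1, the most abundant member, and for Dusp5 and Dusp10, which stood higher after anti-PD-1 without overlap and deviated together between libraries. RefSeq start sites of GRCm38.p6 (the assembly of mm10) were matched for 7 of the 8 genes, all but Dusp4. The 250 bases before each of these starts were searched on both strands. Capitals mark the cAMP response element TGACGTCA, its shorter core TGACG, which the full element contains, and the CArG box, the site bound by serum response factor. The Dusp1 sequence is chr17:26508473-26508722 on the minus strand, that of Dusp5 chr19:53528895-53529144 and that of Dusp10 chr1:184034131-184034380, both on the plus strand.
Dusp1: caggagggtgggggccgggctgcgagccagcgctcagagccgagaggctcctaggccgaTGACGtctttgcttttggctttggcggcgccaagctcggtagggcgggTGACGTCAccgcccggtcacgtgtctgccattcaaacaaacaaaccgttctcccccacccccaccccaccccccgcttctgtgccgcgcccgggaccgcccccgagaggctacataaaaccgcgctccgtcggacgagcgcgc
Dusp5: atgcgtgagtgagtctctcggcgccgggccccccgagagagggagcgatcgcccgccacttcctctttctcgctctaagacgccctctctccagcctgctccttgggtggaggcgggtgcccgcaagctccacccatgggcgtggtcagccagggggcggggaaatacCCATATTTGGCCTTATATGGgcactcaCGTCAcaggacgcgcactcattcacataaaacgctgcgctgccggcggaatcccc
Dusp10: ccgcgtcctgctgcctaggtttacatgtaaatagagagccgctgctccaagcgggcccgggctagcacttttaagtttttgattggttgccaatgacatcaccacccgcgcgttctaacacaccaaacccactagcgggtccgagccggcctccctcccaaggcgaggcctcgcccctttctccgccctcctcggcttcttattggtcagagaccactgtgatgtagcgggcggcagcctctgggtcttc

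The Dusp1 promoter held a full cAMP response element 143 to 136 bases before the start, a motif found in 1.55% of 32851 promoters of the same length, and another core 191 to 187 bases before it. The Dusp5 promoter held 2 CArG boxes side by side, 82 to 73 and 72 to 63 bases before the start, and a core 55 to 51 bases before it. CArG boxes occurred in 1.47% of all promoters searched. The core was found in 3 of the 7 members (Dusp1, Dusp5 and Dusp16) and in 17.8% of all promoters, and the GC box GGGCGG in 5 of 7 and 32.7%. The E-box CACGTG was found in Dusp1 and Dusp2 (6.02% of all promoters). The AP-1 site TGANTCA, the TATA box TATAAA, the ETS site CCGGAAG and the NF-kappaB site were found in none of the 7, against 6.75%, 12.4%, 6.91% and 3.90% of all promoters. The Dusp10 window held none of the marked motifs. Guanine and cytosine made up 56.4% (Dusp6) to 77.2% (Dusp7) of the members' windows, where the median over all promoters was 52.4%. A match describes letters only and does not show that a factor binds there.

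The next question was how the members stood after anti-PD-1. The log2 fold change was above 0 in 6 of the 8 genes, as in 50.1% of all genes tested, and below 0 in Dusp4 and Dusp16. The median log2 fold change of the 8 was 0.45, against 0.0016 over all genes tested. In 3 of the 8, Dusp2, Dusp5 and Dusp10, every anti-PD-1 library was higher than every untreated one, which held for 7.18% of all genes tested. No member was lower without overlap, which held for 6.44% of all genes. None of the 8 passed edgeR's quasi-likelihood test with Benjamini-Hochberg adjustment over all genes, where 0.029% of genes passed. At an unadjusted p under 0.05 in edgeR stood 4 of the 8 (Dusp2, Dusp5 and Dusp10 higher, Dusp4 lower), against 8.31% of all genes (4.23% higher and 4.08% lower). DESeq2, which gave Dusp6 and Dusp7 no adjusted p, called 1, Dusp10 (0.654% of its genes called), as did edgeR without a filter (0.352%), and limma-voom with quality weights called 0 (0.126%). Since the members were chosen with this contrast known, nothing is read from these counts. RNA of sorted cells in bulk cannot tell fewer cells with a transcript from less of it per cell.

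**Figure D2:**
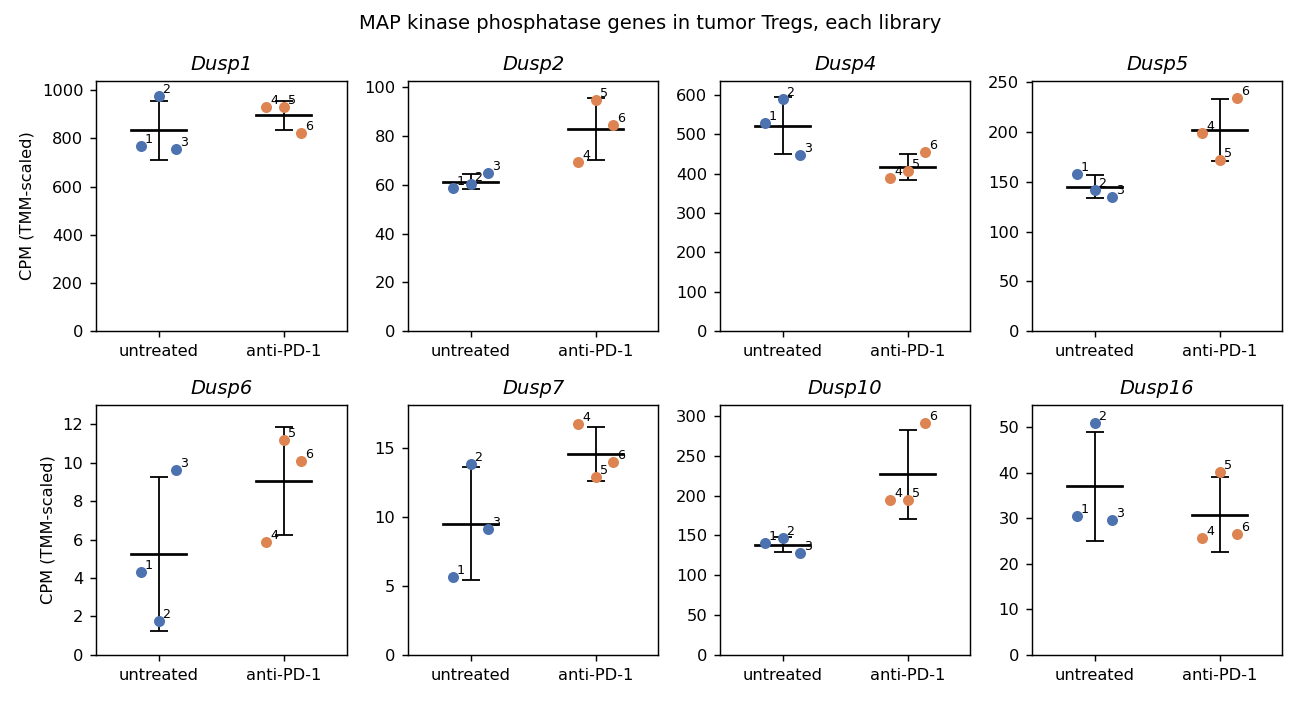
TMM-scaled CPM (vertical axis, from 0) of each gene in the 3 untreated (blue) and 3 anti-PD-1 (orange) libraries, numbered 1 to 6, with the group mean (line) and SD (bar). The groups separate in Dusp2, Dusp5 and Dusp10 and overlap in the other 5 genes; in Dusp10, library 6 stands above the others at 291 CPM.

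Among the JNK and p38 phosphatases, Dusp10 (mm10 chromosome 1, 184034461 to 184075636, plus strand) had the largest log2 fold change of the 3 genes whose groups did not overlap. It was read at 140.2, 147 and 128 CPM untreated (libraries 1 to 3) and at 194, 195 and 291 CPM after anti-PD-1 (libraries 4 to 6). The untreated libraries lay close together, and library 6 was high within its group. The group values were 139 ± 9.32 and 227 ± 55.8 CPM (SD, n = 3 each), a log2 fold change of 0.71 ± 0.18 (SE) with a 95% interval from 0.34 to 1.08. Without library 6 the log2 fold change was 0.49. Dusp16 (chromosome 6, 134715473 to 134792628, minus strand), a phosphatase that shuttles between nucleus and cytoplasm, was read at 30.5, 50.9 and 29.6 CPM untreated and 25.6, 40.2 and 26.6 CPM after anti-PD-1. Library 2 was high in the first group and library 5 in the second, and the groups overlapped. Its log2 fold change of -0.26 ± 0.30 (SE) turned to 0.04 without untreated library 2. The ratio of Dusp10 to Dusp16, per length, was 5.44 to 8.66 in untreated and 9.14 to 20.6 in anti-PD-1 libraries.

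Among the inducible nuclear phosphatases, Dusp5 (chromosome 19, 53529318 to 53541322, plus strand), which removes phosphate from ERK and holds it in the nucleus, was read at 158, 142 and 135 CPM untreated. In anti-PD-1 libraries it stood at 199, 172 and 234 CPM. All 3 of these were above the highest untreated value, and library 6 was the highest. The means were 145 ± 11.8 and 202 ± 30.9 CPM, a log2 fold change of 0.47 ± 0.17 (SE; 95% interval 0.13 to 0.82). Dusp2 (chromosome 2, 127336159 to 127338377, plus strand) was read at 58.7, 60.4 and 64.7 CPM untreated and at 69.3, 94.8 and 84.5 CPM after anti-PD-1. The untreated libraries were tightly grouped, and anti-PD-1 library 4 lay just above them. Its log2 fold change was 0.43 ± 0.20 (SE; 95% interval 0.01 to 0.85).

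Dusp4 (chromosome 8, 34807610 to 34819894, plus strand) was on the other side. It was read at 529, 591 and 447 CPM untreated and at 389.6, 407 and 454 CPM after anti-PD-1. The groups overlapped only in that untreated library 3 was below anti-PD-1 library 6. The means were 522 ± 72 and 417 ± 33.3 CPM, a log2 fold change of -0.33 ± 0.15 (SE; 95% interval -0.63 to -0.02). Dusp1 (chromosome 17, 26505591 to 26508472, minus strand), an early gene that glucocorticoids and stress also induce, was read at 769, 975 and 754 CPM untreated and at 932, 929.6 and 824 CPM after anti-PD-1. Untreated library 2 was the highest of all 6, and the groups overlapped only through it. The other untreated libraries lay below every anti-PD-1 library. The log2 fold change of Dusp1 was 0.11 ± 0.14 (SE), with a 95% interval from -0.19 to 0.40, or 0.878 to 1.32 as a fold. Without untreated library 2 it was 0.24.

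The cytoplasmic ERK phosphatases had few counts. Dusp6 (chromosome 10, 99263231 to 99267489, plus strand), a feedback inhibitor whose transcription follows ERK activity, had 27, 10 and 57 counts in untreated and 31, 54 and 49 in anti-PD-1 libraries. Its CPM was 4.33, 1.79 and 9.63, then 5.89, 11.2 and 10.1. The groups overlapped, and library 2 was lowest. The log2 fold change of 0.76 ± 0.58 (SE) had a 95% interval from -0.44 to 1.96 and was 1.51 without untreated library 3 and 0.38 without untreated library 2. Dusp7 (chromosome 9, 106368632 to 106375723, plus strand), its closest relative in this set, had 35, 77 and 54 counts untreated and 88, 62 and 68 after anti-PD-1. Its CPM was 5.62, 13.8 and 9.13, then 16.7, 12.9 and 14, with untreated library 2 above anti-PD-1 library 5. The log2 fold change of 0.64 ± 0.44 (SE) had a 95% interval from -0.27 to 1.54 and was 1.00 without untreated library 2 and 0.35 without untreated library 1. For both genes, a difference of either sign lies within the interval at this depth.

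**Figure D3:**
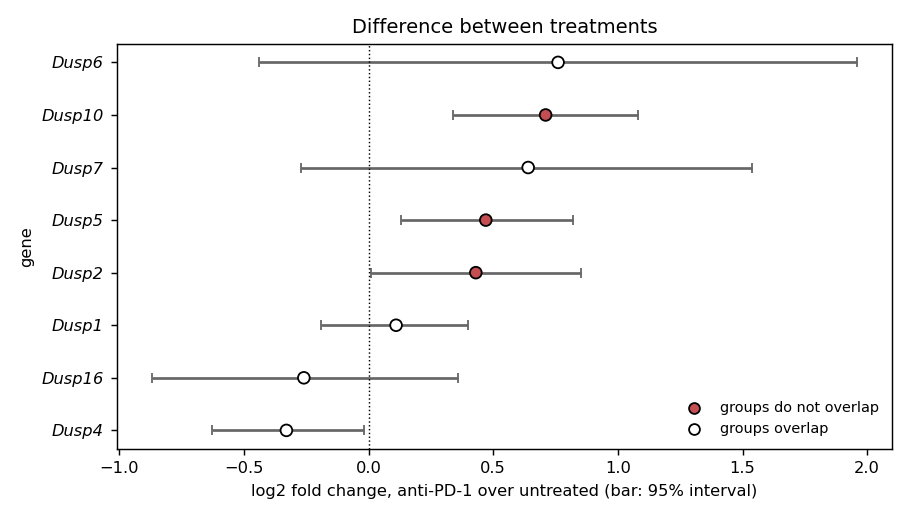
Log2 fold change of each gene, anti-PD-1 over untreated (horizontal axis), with its 95% interval from edgeR; filled points mark genes whose groups do not overlap. Dusp10 (0.71), Dusp5 (0.47) and Dusp2 (0.43) are filled, Dusp4 (-0.33) and Dusp16 (-0.26) lie below 0, and the intervals of Dusp6 and Dusp7 are the widest.

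Without untreated library 1, which stood apart, the log2 fold changes were 0.72 for Dusp10, 0.54 for Dusp5, 0.40 for Dusp2, -0.32 for Dusp4 and 0.05 for Dusp1. Those of Dusp6, Dusp7 and Dusp16 were then 0.62, 0.35 and -0.38.

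Because Dusp4 lay on the other side from Dusp5 and Dusp10, the make-up of the summed phosphatase transcripts was compared within each library, where the scaling of libraries has no part. These ratios were chosen after the values were seen and have no test. Dusp4 made up 25.7%, 25.0% and 23.4% of the summed level per length in untreated libraries and 17.1%, 17.8% and 19.0% in anti-PD-1 libraries. The 2 groups did not overlap, and the gap between them was larger than the range within either. Dusp10 made up 6.10%, 5.55% and 6.0%, then 7.62%, 7.65% and 10.9%, again without overlap. The ratio of Dusp4 to Dusp10 was 4.21, 4.5 and 3.89 untreated and 2.24, 2.33 and 1.74 after anti-PD-1. The ratio of Dusp4 to Dusp5 was 1.59, 1.98 and 1.58, then 0.932, 1.12 and 0.924. The share of Dusp5 itself overlapped between the groups, at 16.1%, 12.6% and 14.8%, then 18.3%, 15.8% and 20.5%. Dusp1 held a like share in both groups, at 49.1% ± 2.40 and 48.3% ± 4.59 (SD, n = 3 each). The inducible nuclear group as a whole made up 92.7% ± 0.236 untreated and 89.8% ± 1.80 after anti-PD-1, and the JNK and p38 group 6.71% ± 0.117 and 9.35% ± 1.80, both without overlap. As shares of one sum, these values depend on each other. The summed level of the inducible nuclear group was not lower, at 807 ± 90.0 and 858 ± 6.49 CPM per kb, with overlapping libraries. Within the JNK and p38 group only the Dusp10 share was higher, while Dusp16 made up 0.82% ± 0.175 and 0.633% ± 0.176, with overlap. The summed level of all 8 genes was 870.4 ± 95.1 and 956 ± 26.5 CPM per kb, with overlapping libraries (789 to 975 and 939 to 987).

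**Figure D4:**
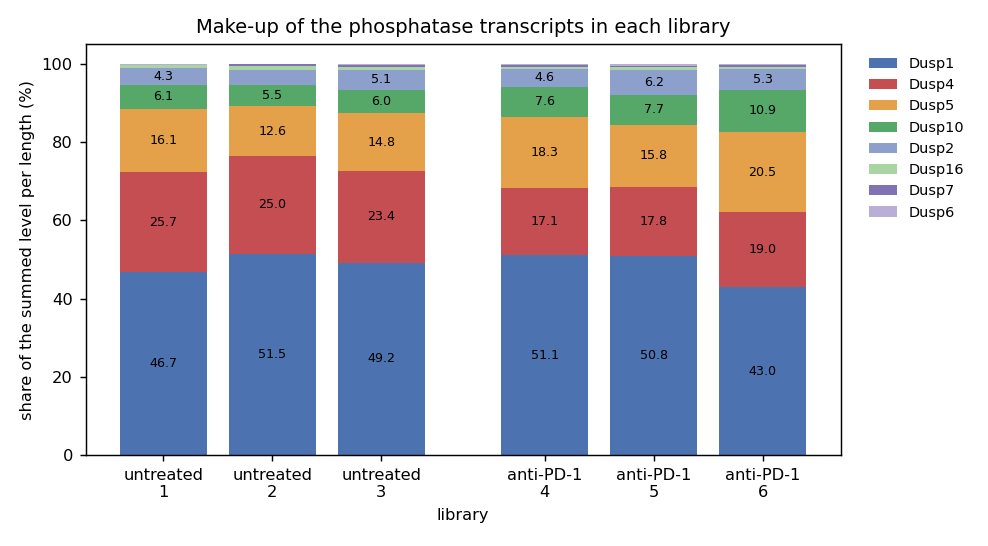
Share of each gene in the summed level per length of the 8 genes (vertical axis, percent) in each library. The Dusp4 share (red) is 23.4% to 25.7% in the 3 untreated and 17.1% to 19.0% in the 3 anti-PD-1 libraries, while Dusp1 (blue) makes up 43.0% to 51.5% in all 6.

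Within treatment groups, the members did not vary as a block. Over the 6 libraries, with each gene's log2 CPM centred within its group, 13 of the 28 pairs of members had a correlation above 0, with a median Pearson r of -0.05 and a range from -0.81 to 0.81. Dusp5 and Dusp10 deviated together (r = 0.81), as did Dusp1 and Dusp16 (0.81) and Dusp4 and Dusp10 (0.70), while Dusp1 and Dusp6 deviated in opposite directions (-0.81). Both Dusp5 and Dusp10 were highest in library 6, at 234 and 291 CPM. The points of each pair share a library and its depth, and few degrees of freedom are left, so these values describe the 6 libraries. The SD of log2 CPM within groups was 0.16 to 0.18 for Dusp1, Dusp2, Dusp4 and Dusp5, 0.25 for Dusp10, 0.40 for Dusp16, 0.46 for Dusp7 and 0.85 for Dusp6.

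The rest of the pathway was described from 10 lists of 133 genes, of which 109 were tested. Of these, 1 passed edgeR's quasi-likelihood test over all genes (0.029% of all genes passed), the AP-1 subunit Jun, which was higher after anti-PD-1. The kinases that the phosphatases act on showed no called difference in edgeR: 5 of 9 tested MAP kinases lay above 0 and 4 below, with a median log2 fold change of 0.08 and no unadjusted p under 0.05. The JNK genes Mapk8 and Mapk9 stood at -0.24 ± 0.22 and 0.17 ± 0.19 (SE), and the p38 alpha gene Mapk14 at -0.08 ± 0.25. Mapk6 and Mapk7, which encode the atypical kinase ERK3 and ERK5, stood at -0.20 ± 0.19 and 0.59 ± 0.65.

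Upstream, the 19 tested MAP kinase kinases and their activators were split 9 above and 10 below 0 (median 0.00), and the 18 tested genes of RAS and its regulators 9 and 9 (median 0.01). Map3k8, an activator of the ERK branch, stood at 0.50 ± 0.25 (SE) and Map3k11 at 0.65 ± 0.36. Rasa3, a GTPase-activating protein that turns RAS-family proteins off, was read at 115, 112 and 88.6 CPM untreated and 164, 160.3 and 150.3 CPM after anti-PD-1, a log2 fold change of 0.59 ± 0.17 (edgeR adjusted p = 0.389). Its groups did not overlap, and neither did those of Rras2 (0.49 ± 0.22) and of the adaptor Grb2 (-0.38 ± 0.18), which missed edgeR's threshold too (adjusted p = 0.572 and 0.586). Sprouty and Spred inhibitors of the same branch were scarce: 3 of 7 were tested, Spred1 at -0.95 ± 0.48, Spry1 at 0.17 ± 0.37 and Spred2 at -0.05 ± 0.30.

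Other phosphatases were compared with the members as a description. Of 7 tested phosphatases outside the family that act on MAP kinases, 6 lay below 0 (median -0.27). Ppm1a stood at 79.3 ± 17.7 and 58.1 ± 2.41 CPM (SD, n = 3 each) and Ppm1b at 181 ± 24.3 and 144 ± 7.15 CPM, both without overlap, with edgeR adjusted p of 0.597 and 0.627. The exception was Ptpn5, with 12 to 20 counts untreated and 30 to 41 after anti-PD-1, a log2 fold change of 1.40 ± 0.64 (edgeR adjusted p = 0.572). Of 8 tested atypical dual-specificity phosphatases, which lack the MAP kinase-docking domain of the 8 members, 3 lay above and 5 below 0 (median -0.15), and none had an unadjusted p under 0.05. They included the RNA phosphatase Dusp11 at 184 and 182 CPM, the pseudophosphatase Styx at -0.30 ± 0.25, Dusp3 at -0.67 ± 0.66, Dusp19 at 0.60 ± 0.68 and Dusp14, whose 2 to 97 counts per library gave -0.51 ± 0.69. Dusp8, of the typical family, stood at -0.20 ± 0.67, and Dusp9, with at most 5 counts per library, was not tested.

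Downstream, 17 of 24 tested transcription factors and early genes lay above 0 (median 0.17), and their summed level was 2510 to 3097 CPM untreated and 3123 to 3370 CPM after anti-PD-1, without overlap; its part in the members' values was not tested. Jun stood at 123 ± 4.16 and 266 ± 37.3 CPM (log2 fold change 1.11 ± 0.16, edgeR adjusted p = 0.0034, higher in 3 of 3 libraries). It missed the threshold without anti-PD-1 library 5 (edgeR adjusted p = 0.0539), and over all alternatives its adjusted p started at 1.1e-07 (DESeq2). The more abundant Fosl2 was on the other side, at 475 and 363 CPM (-0.39 ± 0.18, edgeR adjusted p = 0.588). Fos (0.91 ± 0.18) and Ier2 (0.92 ± 0.19) did not overlap between the groups and missed the threshold (edgeR adjusted p = 0.0658 and 0.0932), and Fosb stood at 0.62 ± 0.26. Over the alternatives, the adjusted p of Fos ran from 0.000966 (DESeq2) to 0.419 (edgeR without anti-PD-1 library 5), and that of Ier2 from 0.0036 (edgeR without a filter) to 0.466 (edgeR without anti-PD-1 library 6). Both genes passed with DESeq2, with limma-voom, without a filter and without untreated library 1, and Fos also with upper-quartile scaling, library totals only and without ribosomal protein genes. Egr1, an ERK-dependent early gene, was at 81.9 and 86.3 CPM (0.07 ± 0.21). Among 10 tested MAP kinase-activated kinases, 5 lay above and 5 below 0 (median 0.00), with Rps6ka3 at -0.28 ± 0.17 and Mknk1 at 0.58 ± 0.41, both without overlap.

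Heat shock genes, which respond to the handling of cells as Dusp1 and the early genes do, lay above 0 in 9 of 10 tested (median 0.28), and none passed edgeR's test with all 6 libraries and the filter. Their summed level was 5049, 3895 and 4155 CPM untreated and 5387, 5983 and 4832 CPM after anti-PD-1, which overlapped. Its largest parts were Hspa8, Hsp90aa1 and Hsp90ab1, with log2 fold changes of 0.07, 0.15 and 0.05. Of the 10, 4 were higher without overlap (Hspa1a, Hspa1b, Dnajb1 and, narrowly, Hsph1), against 7.18% of all genes tested, and 0 were lower without overlap (6.44%). Hspa1a was at 146, 117 and 223 CPM untreated and 453, 566 and 256 CPM after anti-PD-1, a log2 fold change of 1.39 ± 0.30 (edgeR adjusted p = 0.287). Hspa1a and its near-identical neighbour Hspa1b (1.42 ± 0.38) cannot be counted apart with certainty. In edgeR, Hspa1a passed without untreated library 3 (adjusted p = 0.0262), both passed without anti-PD-1 library 6 (0.000262 each), and both passed without a filter (3.84e-12 and 9.06e-14). Over the other alternatives the adjusted p ran from 0.0942 to 0.668 for Hspa1a and from 0.115 to 0.752 for Hspa1b. The part of handling in the members' values was not tested.

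**Figure D5:**
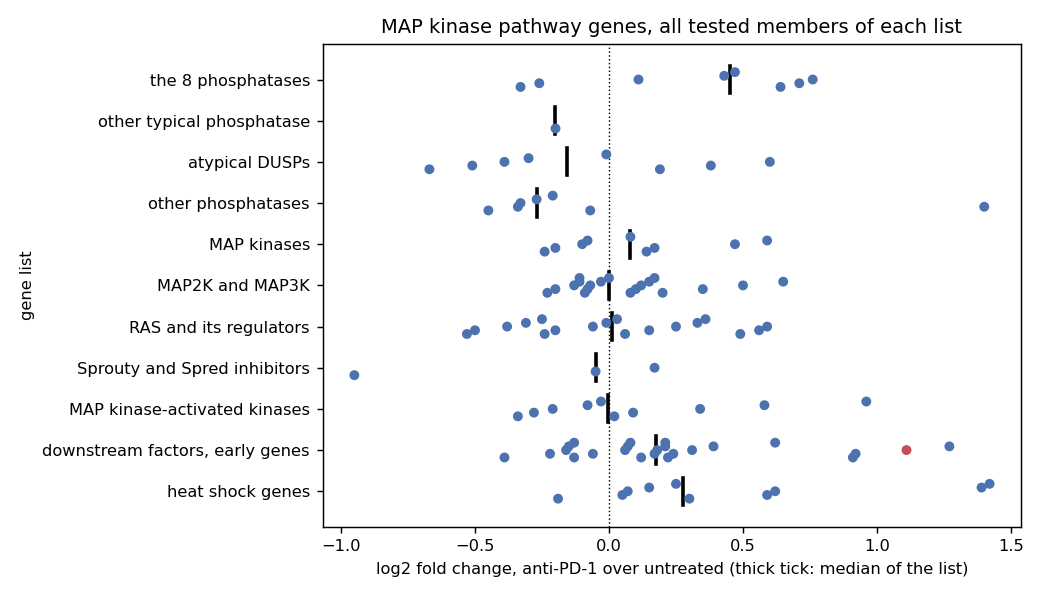
Log2 fold change, anti-PD-1 over untreated (horizontal axis), of every tested gene of each pathway list, with the median of the list as a thick tick; red marks the gene that passed over all genes, Jun. The 8 phosphatases have a median of 0.45, the MAP kinases 0.08 and the atypical phosphatases -0.15.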

How the data were processed

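The deposited values are raw fragment counts. The authors counted them by strand with featureCounts (version 1.5.2) against UCSC's mm10 genes, per the file headers. Also named, in the submitters' processing notes, are FastQC, bcl2fastq and DESeq2. For alignment settings and duplicates, the method is not stated by the labels. Of 23420 genes, 27 had symbols turned into dates, none of them a gene described here, and 1 unnamed column was not used. Gene lengths, in bases, were deposited with the counts.

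The members, the lists and the rule for named genes (all members, up to 4 genes per list by smallest p, 5 genes per pattern search) were chosen with earlier results of these data known. Mapk14, Dusp11, Egr1 and Fosl2 fall outside that rule and were picked after their values were seen. Some genes of the lists and searches are not reported here. EdgeR 4.0.16 in R 4.3.3 was fitted over 10352 genes (filterByExpr at a count of 10 and 15 in total, holding 99.8% of counts) with TMM scaling and a two-sided quasi-likelihood test with robust shrinkage. Treatment was the only term, and p was adjusted by Benjamini-Hochberg at 0.05. SEs and 95% intervals come from that fit, and log2 CPM used a prior count of 2. Libraries are limited in precision by counting error and by n = 3 per group. No library was a copy of another by the chi-square statistic. Alternatives were DESeq2 1.42.0, limma-voom 3.58.1 with quality weights, other scalings, other filters, a fit without 86 ribosomal protein genes, leaving out each library and, chosen after seeing the data, edgeR's older quasi-likelihood method. The fits were tested on simulated data. Sequences are from RefSeq (GRCm38.p6), and counted lengths were compared with the exonic bases of GENCODE M21.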

Additional observations from a re-analysis of the deposited data

How the results depend on the processing

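The median log2 fold change of the 8 phosphatases stayed between 0.38 and 0.50 over 15 alternatives, and 7 members kept their sign in all 15. The exception was Dusp16, at 0.04 without untreated library 2 and between -0.49 and 0.04 over the libraries left out. Counts of calls were less stable. Over all genes, 3 passed, against 31 with DESeq2, 13 with limma-voom with quality weights, 5 with upper-quartile scaling, 7 with library totals only, 52 without a filter, 6 without ribosomal protein genes, and 1 to 19 when a library was left out (1 without anti-PD-1 5, 19 without untreated 1). With library totals only, 6 of the 7 were higher and 1 lower, where all 3 were higher under TMM. Of the members, 0 passed, and 1 (Dusp10) did with DESeq2 or without a filter. Of the pathway genes, 1 passed, against 3 with DESeq2, 3 with limma-voom, 2 with upper-quartile scaling, 2 with library totals, 5 without a filter, 2 without ribosomal protein genes, and 0 to 3 when a library was left out. The cause of these shifts was not tested. Signs turned for Dusp8 (0.10 with limma-voom, 0.29 without untreated 2, down to -0.56 without untreated 3), Dusp14 (0.11 without untreated 1, 0.08 without anti-PD-1 4, down to -2.30 without anti-PD-1 6), Mapk7 (-0.36 without anti-PD-1 4, up to 1.01 without anti-PD-1 5), Spry1 (-0.01 without untreated 2) and Spred2 (0.01 without untreated 1, 0.05 without anti-PD-1 5, down to -0.12 without anti-PD-1 6). By level per length, all 8 members kept their place with library totals only and without untreated 1 or 3, and 6 did without untreated 2, where Dusp6 and Dusp7 traded places. No paired analysis was possible because the groups share no replicate number. With 10 to 88 counts per library, Dusp6 and Dusp7 are limited by depth.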

Other observations

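Among 5520 other genes with a mean of at least 20 CPM, the 5 whose log2 CPM over the 6 libraries was most like the mean pattern of the 8 phosphatases included Snrnp40 (Pearson r = 0.996), Dennd1c (0.990), Mcm3ap (0.985) and Zfp869 (0.975). Snrnp40 was read at 22.8, 26.3 and 25.4 CPM untreated and 29.6, 33.4 and 35.5 CPM after anti-PD-1. The mean pattern, in log2 units around each gene's mean, was -0.28, -0.11 and -0.12 in untreated and 0.04, 0.22 and 0.25 in anti-PD-1 libraries. It was lowest in library 1, as were Dusp2 and Dusp7 but no other member. Each gene had equal weight in it, and the low-count Dusp6 and Dusp7 varied most within groups (SD of log2 CPM 0.85 and 0.46). Once the genes and the mean pattern were centred within treatment groups, a different set of 5 genes was nearest: Wdr76 (0.997), Tubgcp4 (0.995), Ttpal (0.987), Zdhhc3 (0.986) and Nup188 (0.985). In that pattern, libraries 1 and 4 lay lowest in their groups, at -0.11 and -0.13. With 6 libraries and 5520 genes searched, values of r this high describe the libraries and carry no test.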
